A study of Mus musculus with 6 samples.

Results

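The promoters of 10 genes of the integrated stress response and the unfolded protein response were described in H3K4me3 ChIP-Seq peak lists from STHdh cells. They were taken by name, as Atf3, Atf4, Atf6, Xbp1, Ern1, Eif2ak3, Eif2ak4, Ddit3, Trib3 and Ppp1r15a, and are 10 of the 21911 protein-coding genes of the GENCODE mouse annotation. A gene counted as marked where at least 1 peak was found no further than 1 kb from one of its annotated starts. Strength is the percentile of the score of the strongest such peak among all peaks of the same list, so that 100 is the top of that list, and width is the length of that peak in bp. All 10 promoters were marked in all 6 lists.

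H3K4me3, trimethylation of a lysine of histone H3, marks active promoters and those ready for use. STHdh cells are conditionally immortalized striatal progenitors from C57BL/6 mice, and STHdhQ7 cells carry wild-type huntingtin while STHdhQ111 cells carry it with an expanded glutamine tract. All cells were kept without serum for 24 h. Q7SST is the STHdhQ7 line with vehicle and Q111SST is the STHdhQ111 line with vehicle. The other 4 lists came from STHdhQ111 cells given 10 uM of cyproheptadine, an antihistamine that also blocks serotonin receptors, of loxapine, an antipsychotic, of diacylglycerol kinase inhibitor II (DKI), or of meclizine, an antihistamine. The study placed cyproheptadine and loxapine in Group A and DKI and meclizine in Group B. There was 1 list per condition and 1 cell line per genotype. No replicate spread could be computed and no test between lists was made, and genotype and cell line cannot be told apart.

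Both pathways slow protein synthesis and change transcription when cells are under stress. The kinases PERK, encoded by Eif2ak3, and GCN2, encoded by Eif2ak4, phosphorylate the initiation factor eIF2 when unfolded protein builds up in the endoplasmic reticulum (ER) or when amino acids run short, and translation of the transcription factor ATF4 then rises. IRE1, encoded by Ern1, splices the Xbp1 message, and ATF6 is cut in the Golgi to release a transcription factor. ATF3, CHOP (Ddit3), TRIB3 and GADD34 (Ppp1r15a) are made downstream of ATF4, and GADD34 directs the removal of the phosphate from eIF2.

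Promoter sequences of 5 genes are given to show motif matches or the bases under a peak. No motif was compared with strength or width. They run from 250 bases before to 50 after the RefSeq start, 5′ to 3′ along the gene, on GRCm38.p6. RefSeq promoters were matched for 9 of the 10 genes, all but Atf6. Eif2ak4 had a second one, so that 10 promoters of members were searched. The motifs searched on both strands were TGATGNAA, the core shared by amino acid and C/EBP-ATF response elements, TGACGTCA, the cyclic AMP response element, TGACGTGG, the core of the unfolded protein response element, and the ER stress response element, which is CCAAT and CCACG with 9 bases between them. Capitals mark TGATGNAA on the reverse strand in Atf3 (chr1:191183284-191183583, minus strand) and Trib3 (chr2:152344011-152344310, minus strand), and TGACGTCA in Ppp1r15a (chr7:45526219-45526518, minus strand). In Eif2ak3 (chr6:70844265-70844564, plus strand) they mark CCAAT or its complement, and in Eif2ak4 (chr2:118388367-118388666, plus strand) they mark the 106 bases that lay under the DKI peak. The last 3 promoters and the CCAAT search were chosen after the values were seen.
Atf3: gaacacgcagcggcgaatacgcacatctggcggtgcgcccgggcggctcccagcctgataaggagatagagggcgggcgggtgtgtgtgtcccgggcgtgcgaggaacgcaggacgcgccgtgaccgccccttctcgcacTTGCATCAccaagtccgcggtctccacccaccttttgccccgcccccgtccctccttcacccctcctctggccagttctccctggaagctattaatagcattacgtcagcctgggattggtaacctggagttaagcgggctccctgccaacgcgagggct
Trib3: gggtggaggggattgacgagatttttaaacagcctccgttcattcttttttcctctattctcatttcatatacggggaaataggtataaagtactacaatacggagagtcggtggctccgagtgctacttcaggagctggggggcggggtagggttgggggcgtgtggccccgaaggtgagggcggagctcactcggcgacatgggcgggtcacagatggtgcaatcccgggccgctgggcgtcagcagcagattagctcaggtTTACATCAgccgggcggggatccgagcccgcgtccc
Ppp1r15a: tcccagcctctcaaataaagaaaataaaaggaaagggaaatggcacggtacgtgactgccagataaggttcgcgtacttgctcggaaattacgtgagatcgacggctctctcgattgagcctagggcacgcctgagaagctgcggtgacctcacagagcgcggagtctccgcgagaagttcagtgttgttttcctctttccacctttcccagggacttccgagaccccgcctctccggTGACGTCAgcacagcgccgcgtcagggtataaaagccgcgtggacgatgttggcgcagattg
Eif2ak3: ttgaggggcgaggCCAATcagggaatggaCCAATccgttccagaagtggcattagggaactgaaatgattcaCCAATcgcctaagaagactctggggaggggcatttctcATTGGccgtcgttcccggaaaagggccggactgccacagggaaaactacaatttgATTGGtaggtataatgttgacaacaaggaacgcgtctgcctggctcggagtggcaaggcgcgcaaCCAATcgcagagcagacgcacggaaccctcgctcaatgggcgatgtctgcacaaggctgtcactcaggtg
Eif2ak4: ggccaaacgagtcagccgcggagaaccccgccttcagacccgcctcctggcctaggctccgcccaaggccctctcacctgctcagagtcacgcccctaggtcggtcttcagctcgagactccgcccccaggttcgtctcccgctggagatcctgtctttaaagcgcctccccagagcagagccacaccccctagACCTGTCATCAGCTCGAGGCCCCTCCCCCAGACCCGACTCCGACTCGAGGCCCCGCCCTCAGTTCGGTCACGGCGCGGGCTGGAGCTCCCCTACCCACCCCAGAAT

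TGATGNAA was found at 2 of the members' promoters, at bases -110 to -103 of Atf3 and 15 to 22 of Trib3, and in 3.97% of 32851 RefSeq mouse promoters of the same length. TGACGTCA lay at bases -12 to -5 of Ppp1r15a and in 1.79% of all promoters. The ER stress response element and TGACGTGG were in 0 of the members' promoters, against 0.119% and 0.676% of all. CCAAT, counted on both strands, stood 6 times in the Eif2ak3 promoter, and 0.0791% of all promoters held it as often. Of the members' promoters Atf4 came next with 2. The members' promoters had a median GC content of 58.7% against 52.7% for all promoters, and a median ratio of observed to expected CpG of 0.791 against 0.384. They are CpG-rich compared with the median promoter.

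The lists held between 30758 peaks (DKI) and 45564 peaks (loxapine), and the lowest score was 10 in each. Marked genes made up 59.9% of protein-coding genes in Q7SST, 58.4% in Q111SST, 55.4% under cyproheptadine, 58.1% under loxapine, 55.8% under DKI and 58.6% under meclizine, beside 10 of 10 for the stress response genes. Neither the scale of the score nor the read totals are given in the sources used here. Depth is therefore unknown for every list, and percentiles are compared rather than scores. Between 7 and 9 of 10 neural progenitor markers were marked, with Sox2 unmarked in Q7SST and Nes unmarked under cyproheptadine. Of 5 mesenchyme markers 3 were marked in Q7SST and 4 in each mutant list. Of 5 leukocyte markers 0 to 1 were marked, of 4 endothelial markers 1 to 2, of 3 astrocyte markers 1 to 2, of 3 oligodendrocyte markers 0 to 1, of 3 hepatocyte markers 0 to 1 and of 4 striatal neuron markers 0 to 2, with Drd1 and Drd2 unmarked in all 6 lists. In a population of cells, a mark on fewer cells and less mark per cell cannot be told apart.

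The 10 promoters covered a wide range of strength. By the median over the 6 lists the order was Eif2ak4 (93.9), Atf6 (91.9), Xbp1 (91.8), Eif2ak3 (87.5), Trib3 (79.9), Ern1 (75.9), Ppp1r15a (69.1), Atf4 (67.5), Ddit3 (61.5) and Atf3 (60.2). Of the sensors Ern1 stood lowest. Of the genes induced downstream of ATF4, Ppp1r15a, Ddit3 and Atf3 were in the lower part of the order and Trib3 was above Ern1. Every pair of neighbours in this order had ranges over the 6 lists that overlapped. The least variable member was Atf6, with a range of 1.07 percentile points, and the most variable was Atf3, with 30.6 points. With lists of equal size it was instead Eif2ak3 (24.3 points, against 20.6 for Atf3), as it was among promoter peaks (42.6 points), and with a stricter score it was Ern1 (37.7). The members' median strength lay between 72.0 (DKI) and 82.8 (Q111SST), beside 76.3 and 82.6 for all marked genes in the same lists. Their median width lay between 2235 bp (Q111SST) and 2437 bp (meclizine). All marked genes had medians of 1795 bp and 1672 bp in these 2 lists, so the members' peaks were wider than the typical marked promoter. Strength and width measure different things here, with a rank correlation across all marked genes of only 0.13 in Q111SST, where genes are not independent replicates.

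**Figure D1:**
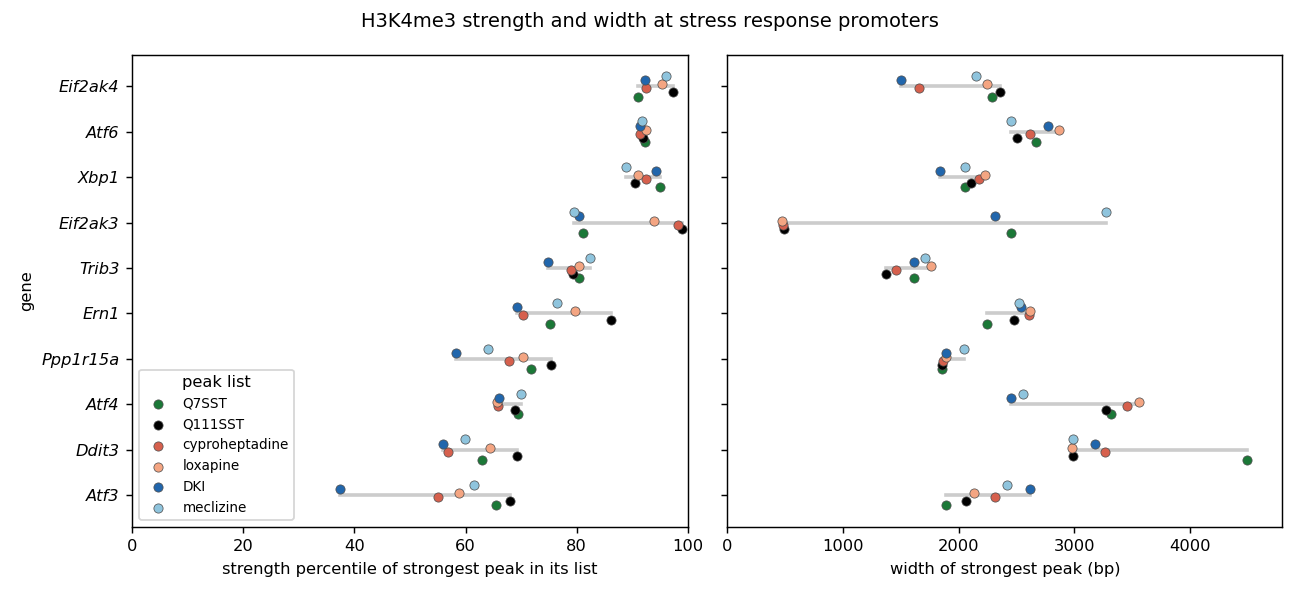
Strength percentile (left) and width in bp (right) of the strongest H3K4me3 peak of each of the 10 genes, with 1 point per peak list and a grey line from the lowest to the highest value. Atf6 stayed between 91.4 and 92.5 while Atf3 ran from 37.4 to 68.0, and the Eif2ak3 peak was 475 to 492 bp wide in 3 lists and 2317 to 3272 bp in the other 3.

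Among the stress sensors, Eif2ak3 had the most unusual peak. The gene (ENSMUSG00000031668.14, chr6:70844515-70905245, plus strand, 17 exons) had a strength of 81.1 in Q7SST, 98.9 in Q111SST, 98.3 under cyproheptadine, 93.9 under loxapine, 80.5 under DKI and 79.5 under meclizine. The corresponding widths were 2458, 492, 484, 475, 2317 and 3272 bp. The 3 lists with the strongest peaks were therefore those with the narrowest. In Q7SST 1 peak ran from 900 bp before the start to 1557 bp after it, under DKI from 927 bp before to 1389 bp after, and under meclizine from 898 bp before to 2373 bp after. In Q111SST there were 2 peaks instead, 1 from 822 to 331 bp before the start and another from 520 to 2930 bp after it, with 850 bp between them. The gaps were 990 bp under cyproheptadine and 975 bp under loxapine. No peak lay over the start, exon 1 or any of the 300 bases of the promoter printed above in these 3 lists, whereas all 300 bases lay under the peak in Q7SST, DKI and meclizine.

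A gap of this kind, with peaks on both sides of the main start and none over it, was present in 4.33% of genes with a peak within 1 kb of that start in Q7SST, 4.59% in Q111SST, 6.86% under cyproheptadine, 6.78% under loxapine, 6.08% under DKI and 3.67% under meclizine. Eif2ak3 was the only one of the 10 members to have it, in Q111SST, cyproheptadine and loxapine. The division of the lists, with a gap in the mutant vehicle list and both Group A lists and a peak over the start in the wild-type list and both Group B lists, was shared by 14 of 10707 genes (0.131%). That pattern was looked for after the Eif2ak3 values were seen. The others were Ahctf1, Creb1, Cyth1, Fut8, Gm10518, Gtpbp1, Hnrnpr, Mark3, Ppia, Rictor, Scaf8, Snx13 and Tcta. The downstream Eif2ak3 peak had a strength of 74.3 in Q111SST, 72.6 under cyproheptadine and 81.4 under loxapine. In Q111SST and cyproheptadine it stood below the single peaks of Q7SST, DKI and meclizine, and only the narrow upstream peak gave the gene its high strength.

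Eif2ak4 (ENSMUSG00000005102.13, chr2:118388618-118475234, plus strand, 39 exons) was the strongest member by its median. Its strength was 91.1 in Q7SST, 97.4 in Q111SST, 92.5 under cyproheptadine, 95.4 under loxapine, 92.4 under DKI and 96.1 under meclizine, and the Q7SST value was the lowest of the 6. The width was 2287, 2361, 1658, 2246, 1502 and 2152 bp in the same order. The peak was narrower in the lists of cyproheptadine and DKI, and it was shorter at both ends. It began 6 bp before the start under cyproheptadine and 57 bp before it under DKI, and 423 to 513 bp before it in the other 4 lists. It ended 1651 bp after the start under cyproheptadine and 1444 bp after it under DKI, and 1683 to 1847 bp after it in the other 4. Of the 300 promoter bases printed above, 55 lay under the peak under cyproheptadine and 106 under DKI, which are the bases in capitals, and all 300 in the other lists. RefSeq gives Eif2ak4 a second promoter further downstream (chr2:118388862-118389161), and all 300 of its bases lay under the peak in each of the 6 lists.

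Ern1 (ENSMUSG00000020715.9, chr11:106394650-106487852, minus strand, 22 exons) was strongest in Q111SST. Its strength was 75.3 in Q7SST, 86.2 in Q111SST, 70.3 under cyproheptadine, 79.7 under loxapine, 69.2 under DKI and 76.5 under meclizine. The width moved little, from 2247 bp in Q7SST to 2619 bp under loxapine. Atf6 (ENSMUSG00000026663.6, chr1:170704674-170867771, minus strand, 16 exons) held its strength at 92.3 in Q7SST, 92.0 in Q111SST, 91.4 under cyproheptadine, 92.5 under loxapine, 91.4 under DKI and 91.8 under meclizine. No list stood apart for Atf6, and its width also stayed between 2452 and 2865 bp. The Atf6 peak also held the start of Gm9929, a noncoding transcript on the opposite strand whose start lies 874 bp away, and the mark of the 2 cannot be separated.

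**Figure D2:**
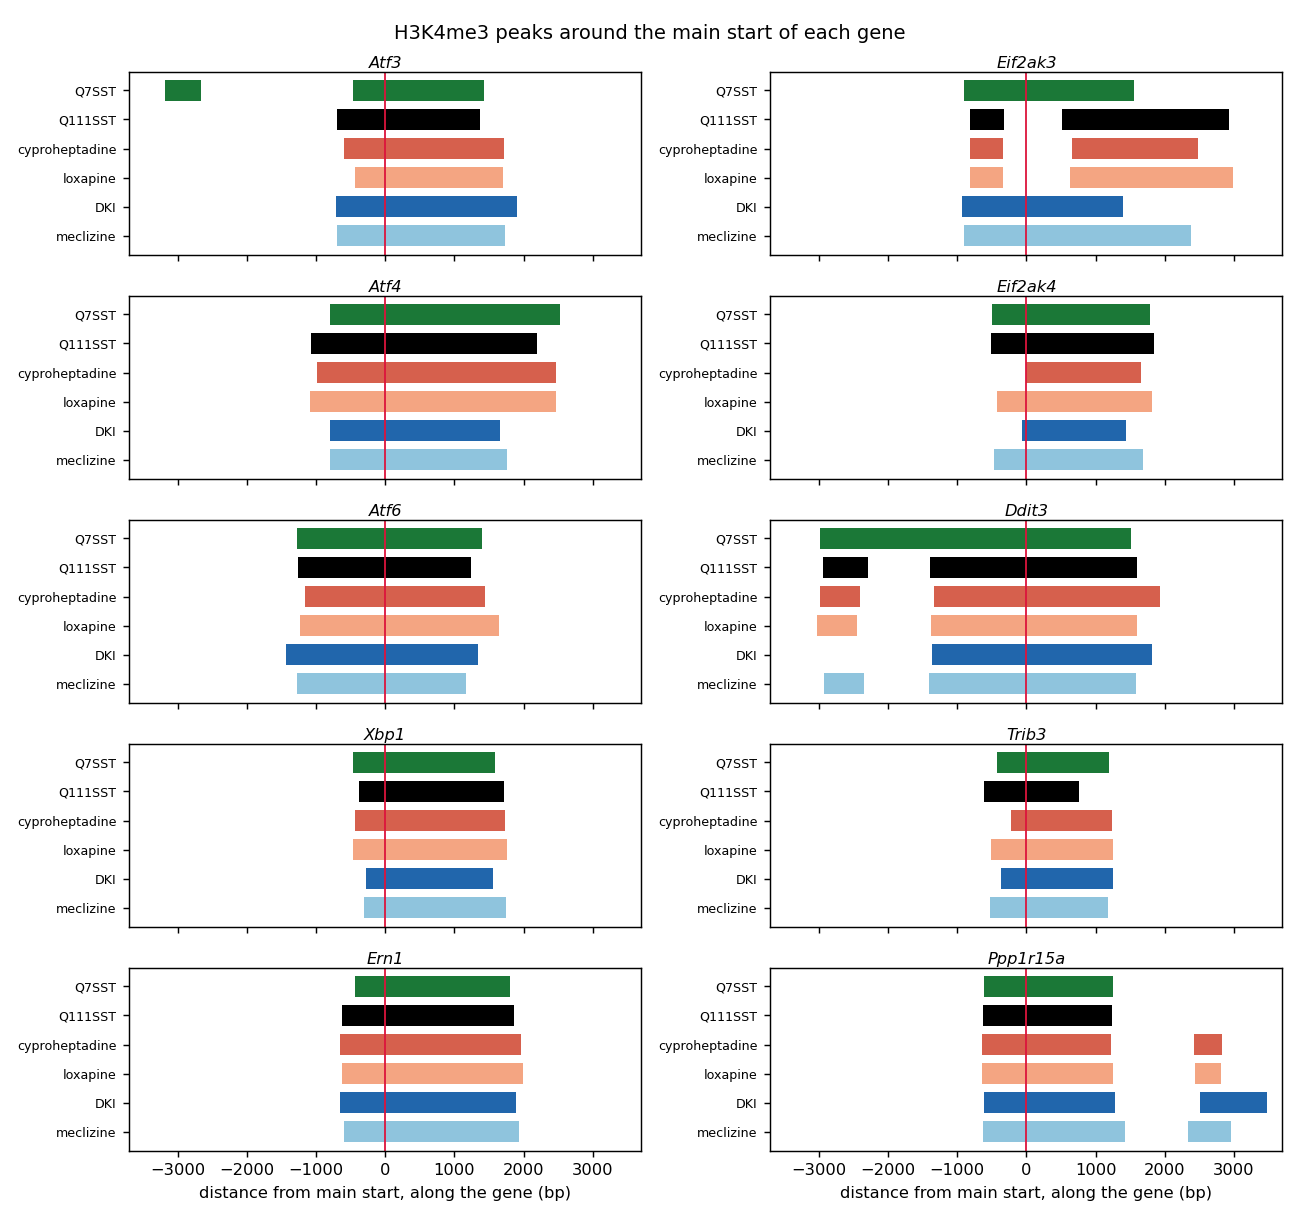
Extent of every H3K4me3 peak around the main start of each gene (red line) in the 6 lists, as distance in bp along the direction of transcription. Eif2ak3 shows 2 peaks with a gap over the start in Q111SST, cyproheptadine and loxapine, and Ddit3 shows 1 joined peak in Q7SST. Ppp1r15a shows a second peak between 2341 and 3476 bp in the 4 compound lists.

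Of the transcription factors, Atf4 spanned 4.27 points over the 6 lists and Xbp1 6.26. These spans depended on the setting, since Atf4 spanned 17.0 points with lists of equal size and 22.9 with a stricter score, and Xbp1 15.0 among promoter peaks. Atf4 (ENSMUSG00000042406.8, chr15:80255184-80257541, plus strand), the central factor of the integrated stress response, had a strength of 69.5 in Q7SST, 68.9 in Q111SST, 65.8 under cyproheptadine, 65.6 under loxapine, 66.1 under DKI and 69.9 under meclizine. Its width was 3320, 3276, 3453, 3562, 2458 and 2559 bp in the same order, and the 2 Group B lists had the narrowest peaks, as they did at Xbp1 and at 16.9% of genes marked in all 6 lists. This short gene of 3 exons lay wholly under its peak in Q7SST, cyproheptadine and loxapine, to 93.3% in Q111SST, to 74.6% under meclizine and to 70.7% under DKI. Xbp1 (ENSMUSG00000020484.18, chr11:5520659-5525893, plus strand), the target of IRE1, had a strength of 95.1 in Q7SST, 90.5 in Q111SST, 92.5 under cyproheptadine, 91.1 under loxapine, 94.4 under DKI and 88.8 under meclizine. Its highest value was in Q7SST and the peak covered exons 1 and 2 of 5 in every list.

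Atf3 was weakest under DKI. Atf3 (ENSMUSG00000026628.13, chr1:191170296-191218039, minus strand), a factor induced by many stresses, had a strength of 65.5 in Q7SST, 68.0 in Q111SST, 55.1 under cyproheptadine, 58.8 under loxapine, 37.4 under DKI and 61.5 under meclizine, from scores of 75, 72, 46, 57, 34 and 73. The widths were 1895, 2062, 2318, 2136, 2614 and 2421 bp. The DKI list thus had the lowest strength and the widest peak, and all 4 compound lists were weaker and wider than Q111SST. That was so at 3 members, Atf3, Ern1 and Ppp1r15a, and at 1.21% of genes marked in all 6 lists, a pattern looked for after the Atf3 values were seen. The margin at Ppp1r15a was small, with 1866 bp under cyproheptadine against 1861 bp in Q111SST. The Atf3 peak covered exon 1, which is noncoding, and all 300 bases of the printed promoter in every list. A second annotated Atf3 start lies upstream at position 191218039, and no list had a peak within 1 kb of it.

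Ddit3 (ENSMUSG00000025408.15, chr10:127290774-127296288, plus strand), which encodes the pro-apoptotic factor CHOP, had a strength of 63.0 in Q7SST, 69.3 in Q111SST, 56.9 under cyproheptadine, 64.5 under loxapine, 55.9 under DKI and 59.9 under meclizine. The widths were 4493, 2993, 3268, 2980, 3182 and 2990 bp. The Q7SST peak was the widest of any member in any list, and the extra length was upstream. It began 2984 bp before the start, against 1336 to 1405 bp before it in the 5 mutant lists. In Q111SST, cyproheptadine, loxapine and meclizine a separate peak of 577 to 645 bp stood at the upstream end of this stretch, and under DKI there was no peak there. The stretch holds the start of Mbd6, a gene on the opposite strand whose start lies 1756 bp away, and of the noncoding Gm20492 at 2260 bp. The noncoding Gm4189 starts on the opposite strand 14 bp from the Ddit3 start, inside the peak, so the mark cannot be assigned to 1 of these genes.

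Trib3 and Ppp1r15a encode feedback regulators. Trib3 (ENSMUSG00000032715.9, chr2:152337422-152344032, minus strand), a pseudokinase induced by ATF4 and CHOP, had a strength of 80.4 in Q7SST, 79.4 in Q111SST, 79.1 under cyproheptadine, 80.4 under loxapine, 74.8 under DKI and 82.4 under meclizine. The values spanned 7.60 points and only DKI lay below 79. Its widths were 1617, 1373, 1456, 1765, 1617 and 1709 bp, narrowest in Q111SST. The peak covered exon 1 and exon 2, the first coding exon, in every list. It reached over 245 of the 300 printed promoter bases under cyproheptadine and over all 300 in the other lists.

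Ppp1r15a (ENSMUSG00000040435.12, chr7:45522916-45526268, minus strand) had a strength of 71.9 in Q7SST, 75.5 in Q111SST, 67.8 under cyproheptadine, 70.4 under loxapine, 58.3 under DKI and 64.0 under meclizine. The 4 compound lists were all below both vehicle lists, as they also were at Atf3 and at 15.3% of genes marked in all 6 lists. The width stayed between 1858 and 2049 bp. Each compound list also had a second, weak peak inside the gene, with a strength of 43.1 under cyproheptadine, 35.8 under loxapine, 30.9 under DKI and 17.1 under meclizine, and neither vehicle list had a peak there, a pattern shared by 162 of 61171 regions with a peak in any list (0.265%) and looked for after these values were seen. It lay 2341 to 3476 bp after the main start, near the start of a shorter annotated transcript. Past the end of the gene, 4230 to 4577 bp after the main start, Q7SST had a peak at 62.5 and loxapine one at 35.8. Plekha4 starts on the opposite strand 62 bp from the Ppp1r15a start, so the main peak belongs to a divergent pair, with the TGACGTCA match of the printed sequence under it.

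The comparison of Q7SST with Q111SST asks how the 2 cell lines differ without a compound. The median change at the 10 promoters was -3.09 percentile points, Q7SST minus Q111SST, against -1.04 over 12335 genes marked in both, and a stricter score of 47 turned the members' median to 0.53. Strength was lower in Q7SST by 10 points or more for 2 members, Eif2ak3 (-17.8) and Ern1 (-11.0), where 13% of all genes were. It was higher by as much for 0 members, where 8.85% of all genes were. At this setting Eif2ak3, Eif2ak4, Atf6 and Xbp1 stood within 10 points of the top in Q111SST and could not rise so far. The count of 0 depended on the setting. Xbp1 was higher by 13.2 points among promoter peaks (where 20.4% of all genes were higher by 10 or more) and by 10.8 with a stricter score (20.7%). Atf3 was higher by 13.9 with starts within 5 kb (9.32%). Width was larger in Q7SST by 1.5-fold or more at Eif2ak3 and Ddit3, with log2 ratios of 2.32 and 0.59, where 5.82% of all genes were, and smaller by as much for 0 members, against 6.89%. The Eif2ak3 strength change lay just outside the 5th to 95th percentile range of all genes, -17.0 to 15.7 points. The Eif2ak3 strength and width changes both rest on the gap described above. The downstream Q111SST peak of Eif2ak3 was at 74.3, below the Q7SST peak at 81.1. When peaks within 1 kb were merged, the log2 width ratio of Eif2ak3 became -0.61. That of Ddit3, which has the separate upstream peak in Q111SST, became -0.01, so that neither was wider.

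Q7SST was also set against the range of the 5 mutant lists, in strength and in width. It was the highest list for the strength of Xbp1, where 21% of genes marked in all 6 lists had Q7SST highest, and the lowest for the strength of Eif2ak4, where 15.4% did. For width it was the highest at Ddit3, against 24.2% of genes, and the lowest at Atf3, Ern1 and Ppp1r15a, against 9.34%. The margins at Ppp1r15a (1858 bp against 1861 bp in Q111SST) and Xbp1 (95.1 against 94.4 under DKI) were small, and with lists of equal size 0 members lay above the mutant range in strength.

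The 4 compounds were given at the same dose and time, and their lists share the Q111SST list as their reference. With cyproheptadine the median change was -4.02 points at the 10 promoters and -3.74 over all genes, under loxapine -4.05 and -0.35, under DKI -9.23 and -6.57, and under meclizine -4.08 and -1.54. In this main comparison the members' median stood below that of all genes for each compound, by the most under loxapine and by the least under cyproheptadine. These sizes depend on how the lists are compared, and with lists of equal size the members' median was -1.76 under cyproheptadine, -8.83 under loxapine and -4.02 under DKI. Counting only peaks over a start, which left out Eif2ak3, gave -5.07 under DKI and -1.67 under meclizine.

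Strength was lower by 10 points or more at 3 members under cyproheptadine, which were Ern1 (-15.9), Atf3 (-12.9) and Ddit3 (-12.5), where 25.9% of all genes were. With loxapine it was lower at 0 members, against 9.41% of genes, and the lowest value was at Atf3 (-9.20). With lists of equal size it was lower at 5 members under loxapine, Atf3 (-19.0), Ddit3 (-12.3), Ern1 (-11.9), Ppp1r15a (-11.6) and Atf4 (-10.04), against 22.3% of genes, whereas under cyproheptadine only Ern1 (-14.5) remained lower by 10 points, against 17.2%, with Atf3 at -7.20 and Ddit3 at -7.02. With DKI it was lower at 5 members, Atf3 (-30.6), Eif2ak3 (-18.4), Ppp1r15a (-17.2), Ern1 (-17.0) and Ddit3 (-13.4), against 38.8% of genes. With lists of equal size 3 of these remained under DKI, against 21.5% of genes, with Ppp1r15a at -9.47 and Ddit3 at -3.77. With meclizine it was lower at Eif2ak3 (-19.4) and Ppp1r15a (-11.4), against 10% of genes. In the main comparison no member was higher by 10 points with any compound, where 3.48% of genes were under cyproheptadine, 7.1% under loxapine, 3.55% under DKI and 4.18% under meclizine. The cyproheptadine and DKI counts are near the share for all genes. Among promoter peaks Xbp1 was higher by 13.6 points under DKI, where 16.8% of all genes were higher by 10 or more, and Trib3 by 10.5 under meclizine, where 12.4% were. With a stricter score Trib3 was higher by 12.1 and Atf4 by 11.7 under meclizine, where 18.4% of all genes were. The DKI change at Atf3 lay outside the 5th to 95th percentile range of all genes, which ran from -29.5 to 8.01 points. With starts within 5 kb the Atf3 change under DKI turned to 10.4 (3.98% of all genes were then higher by 10 or more), since the intronic peak near the upstream start, described below, was then the strongest. The change of Eif2ak3 under meclizine also lay outside, against -13.3 to 8.72 points. At Eif2ak3 the Q111SST value was that of the narrow upstream peak. The downstream Q111SST peak was at 74.3, below the peaks over the start under DKI (80.5) and meclizine (79.5).

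The members' median log2 width ratio to Q111SST was 0.07 under cyproheptadine against -0.17 over all genes, 0.06 under loxapine against -0.02, 0.06 under DKI against -0.26, and 0.01 under meclizine against -0.09. Peaks at all genes were thus narrower under cyproheptadine and DKI while the typical member was not. Eif2ak3 was wider by 1.5-fold or more under DKI (2.24) and meclizine (2.73), where 1.32% and 3.78% of all genes were. No member was wider by that much under cyproheptadine or loxapine, against 0.978% and 2.52%. Eif2ak4 was the only member narrower by that much, under DKI (-0.65), where 18.7% of genes were, against 16% under cyproheptadine, 8.51% under loxapine and 4.63% under meclizine. Merging of peaks within 1 kb turned the Eif2ak3 ratios to -0.70 under DKI and -0.20 under meclizine. Merging also made Ddit3 narrower under loxapine (-0.60) and Ppp1r15a wider under meclizine (0.95), both past 1.5-fold. The DKI median of the members then became -0.09 and that of meclizine -0.02.

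**Figure D3:**
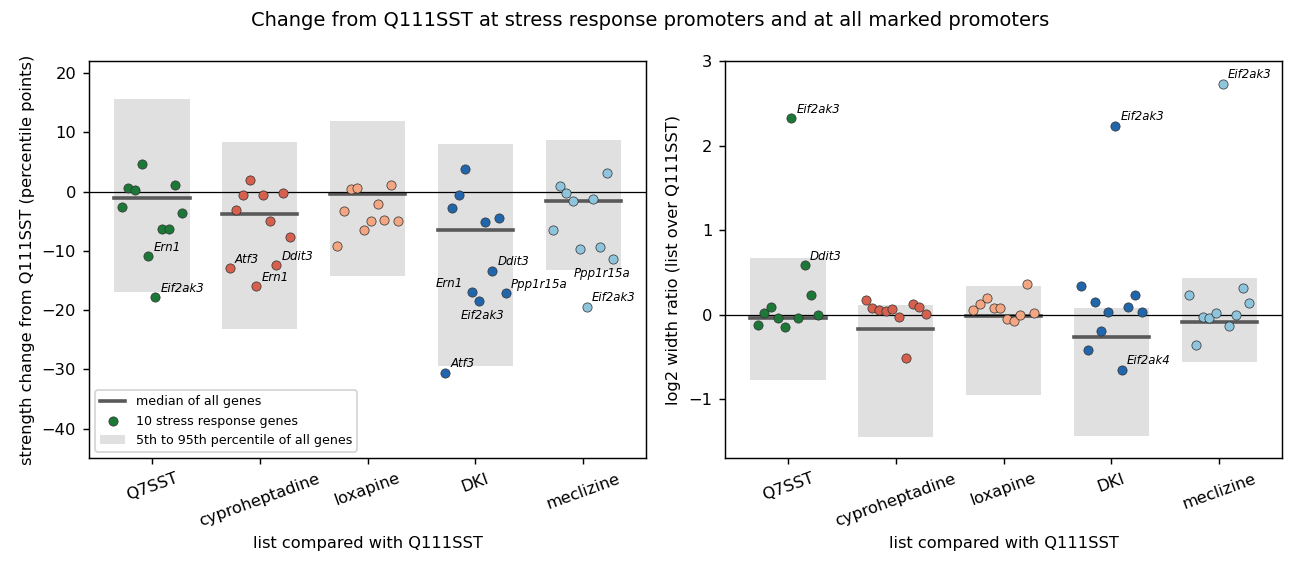
Change from Q111SST in strength (left, percentile points) and in width (right, log2 ratio) for the 10 genes (points), with the median (line) and the 5th to 95th percentile range (grey bar) of all genes marked in both lists. Points past 10 points lower or past 1.5-fold in width are named, and no member was 10 points higher in any list. Eif2ak3, Eif2ak4, Atf6 and Xbp1 stood within 10 points of the top in Q111SST and could not rise so far.

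All 10 strongest peaks overlapped the strongest Q111SST peak by at least 1 bp in each other list, where 96.5% of genes did so in Q7SST, 97.6% under cyproheptadine, 97.6% under loxapine, 97.3% under DKI and 98.2% under meclizine. With a reciprocal overlap of 50% it was 10 members under cyproheptadine (88.9% of genes) and loxapine (91.8%), and 9 in Q7SST (90.2%), DKI (88.2%) and meclizine (94.1%), the exception being Eif2ak3, whose strongest peak lay upstream of the start in Q111SST, cyproheptadine and loxapine and over it in the other 3 lists. These counts are near the shares for all genes. Of the 38 annotated starts of the 10 genes, 27 to 31 lay under a peak and 30 to 31 within 1 kb of one.

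Away from their starts the longer genes held further peaks. Over 1 kb from any start of their own gene, 20 regions with a peak lay within the 10 genes, 19 of them in introns. Atf6 held 8 of these regions. The one 13714 bp inside the gene (chr1:170853035-170854057) had a peak strength of 69.9 in Q7SST, 78.3 in Q111SST, 82.6 under cyproheptadine, 90.4 under loxapine, 84.4 under DKI and 68.3 under meclizine. In the Atf6 introns, chr1:170741291-170742369 and chr1:170771253-170772189 each had a peak in the 5 mutant lists and none in Q7SST. Strengths in the mutant lists were 25.0 to 62.7 and 21.1 to 55.5. Of all regions with a peak, 6.01% had this pattern. The first intron after the upstream Atf3 start (chr1:191215714-191216866) had a peak at 90.4 in Q7SST, 76.6 in Q111SST, 59.3 under cyproheptadine, 74.8 under loxapine, 86.9 under DKI and 78.9 under meclizine. In each list this peak stood above the one at the main Atf3 start.

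Other genes of the same pathways were described from 5 lists with 52 genes. Of these 50 were marked in Q7SST, Q111SST and meclizine and 49 under cyproheptadine, loxapine and DKI. Strength was lower than in Q111SST by 10 points or more for 8 in Q7SST, 9 under cyproheptadine, 3 under loxapine, 16 under DKI and 5 under meclizine, and higher by as much for 2, 2, 1, 3 and 0. Over all genes the shares were 13%, 25.9%, 9.41%, 38.8% and 10% for lower and 8.85%, 3.48%, 7.1%, 3.55% and 4.18% for higher, in the same order. Derl3, of ER-associated degradation, and Ern2, the relative of Ern1, were unmarked in all 6 lists. The median change was -2.27 points in Q7SST, -2.97 under cyproheptadine, -0.74 under loxapine, -4.39 under DKI and -1.78 under meclizine, so the members' own medians were lower in each comparison.

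The integrated stress targets, the 14 other genes induced through ATF4 or active beside it, held the largest differences from Q111SST. Chac1, which degrades glutathione, had a strength of 69.9 in Q7SST, 85.9 in Q111SST, 41.8 under cyproheptadine, 63.9 under loxapine, 40.8 under DKI and 52.9 under meclizine, with its narrowest peak, 1167 bp, in Q111SST against 1851 to 2330 bp in the others. Lower by 10 points or more than Q111SST were 3 of these genes in Q7SST, 5 under cyproheptadine, 2 under loxapine, 6 under DKI and 3 under meclizine, beside 13%, 25.9%, 9.41%, 38.8% and 10% of all genes. Ddit4, an inhibitor of mTOR, was at 56.7 in Q7SST, 70.2 in Q111SST, 53.3 under cyproheptadine, 63.3 under loxapine, 57.5 under DKI and 69.5 under meclizine. Vldlr, a lipoprotein receptor, was the weakest of the list in Q111SST (44.1), was at 58.5 in Q7SST and was lower in every compound list, at 29.0 under cyproheptadine, 33.1 under loxapine, 36.1 under DKI and 39.1 under meclizine. Xpot, the tRNA exporter, was the strongest (97.1). Cebpg, a partner of ATF4, was at 81.1 in Q7SST, 79.4 in Q111SST, 78.6 under cyproheptadine, 86.5 under loxapine, 75.3 under DKI and 87.0 under meclizine. Atf5 was at 65.5, 72.8, 61.7, 70.4, 60.6 and 62.1 in the same order, with Q111SST the highest. For Cebpb, a C/EBP factor, the peak lay 757 bp from the start in Q111SST (92.4) and 97 bp from it in Q7SST (79.7), and in meclizine the peak in the window was one of 231 bp (38.1). With cyproheptadine, loxapine and DKI the nearest peak lay 1230 to 1245 bp away, so that Cebpb counted as unmarked there by a small distance.

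In the list of eIF2 control, Ppp1r15b, the constitutive partner of the eIF2 phosphatase, was weakest in Q111SST. It had a strength of 94.7 in Q7SST, 82.3 in Q111SST, 97.7 under cyproheptadine, 96.9 under loxapine, 98.7 under DKI and 92.2 under meclizine, from peaks of 496 to 826 bp, the widest being that of Q111SST. Its stress-induced relative Ppp1r15a showed the reverse order of Q111SST and the compounds, at 75.5 against 58.3 to 70.4. At Ppp1r15b a peak lay over a start in Q111SST alone, and the nearest lay 55 to 64 bp away in the other lists. The Ppp1r15b values may therefore compare unlike peaks. Ppp1cb, the catalytic subunit, was strongest of the list in Q111SST (99.4) and Eif2s1, the subunit of eIF2 that is phosphorylated, was weakest (66.6). Lower by 10 points or more were 1 of these 10 genes in Q7SST, 0 under cyproheptadine and loxapine, 4 under DKI and 0 under meclizine, beside 13%, 25.9%, 9.41%, 38.8% and 10% of all genes. Higher by as much were 1, 1, 1, 1 and 0 in the same order, beside 8.85%, 3.48%, 7.1%, 3.55% and 4.18%.

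Among 12 ER chaperones and folding enzymes, which are targets of ATF6 and XBP1, all were marked in every list. Lower by 10 points or more were 1 in Q7SST, 2 under cyproheptadine, 0 under loxapine, 2 under DKI and 1 under meclizine, beside 13%, 25.9%, 9.41%, 38.8% and 10% of all genes. Hspa5, the chaperone BiP, and Hyou1 were tied as the weakest of the list in Q111SST (80.3). Hspa5 was at 76.0 in Q7SST, 69.7 under cyproheptadine, 79.4 under loxapine, 62.0 under DKI and 70.3 under meclizine. Dnajb11 was the strongest (94.9). Dnajc3, an inhibitor of PERK, was at 74.9 in Q7SST, 90.0 in Q111SST, 88.9 under cyproheptadine, 96.6 under loxapine, 75.8 under DKI and 81.9 under meclizine. These values compare unlike peaks. In Q7SST (2538 bp) and meclizine (2504 bp) 1 peak lay over a start. The other lists had 2 peaks, the strongest 950 to 1116 bp wide, and the nearest lay 234 to 301 bp from a start. Pdia6, a disulfide isomerase, was at 92.3, 82.6, 77.6, 82.7, 78.7 and 82.2 in the same order, with Q7SST the highest.

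In ER-associated degradation, Sel1l, the adaptor of the ubiquitin ligase Syvn1, was at 81.1 in Q7SST, 72.0 in Q111SST, 53.3 under cyproheptadine, 59.5 under loxapine, 28.1 under DKI and 63.6 under meclizine. All 4 compound lists were below both vehicle lists, as at 15.3% of genes marked in all 6 lists. Syvn1 itself stayed at 96.9 to 99.2. Os9, a lectin of the same complex, was at 82.9 in Q7SST, 84.3 in Q111SST, 96.2 under cyproheptadine, 92.6 under loxapine, 95.3 under DKI and 88.1 under meclizine, so that both vehicle lists were below all 4 compound lists, as at 3.65% of those genes. Among the proteases and relatives of the sensors, Mbtps1, a protease that cuts ATF6, was the strongest in Q111SST (98.1), and Atf6b, a relative of ATF6, was the weakest (43.0), with 25.6 to 37.1 in the other 5 lists. Mbtps2, the other protease, was at 65.9 in Q7SST, 77.9 in Q111SST, 81.8 under cyproheptadine, 87.0 under loxapine, 77.7 under DKI and 78.9 under meclizine. Creb3l1, another factor released by these proteases, was at 68.6, 76.6, 79.5, 85.5, 66.1 and 86.0 in the same order, and was lowest under DKI. Creb3l2 was at 94.6 under DKI and between 81.8 and 87.0 in the other 5 lists. Of the degradation genes 1, 1, 1, 2 and 0 were lower by 10 points or more in Q7SST, cyproheptadine, loxapine, DKI and meclizine, and of the proteases and relatives 2, 1, 0, 2 and 1, beside the shares of all genes given above.

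**Figure D4:**
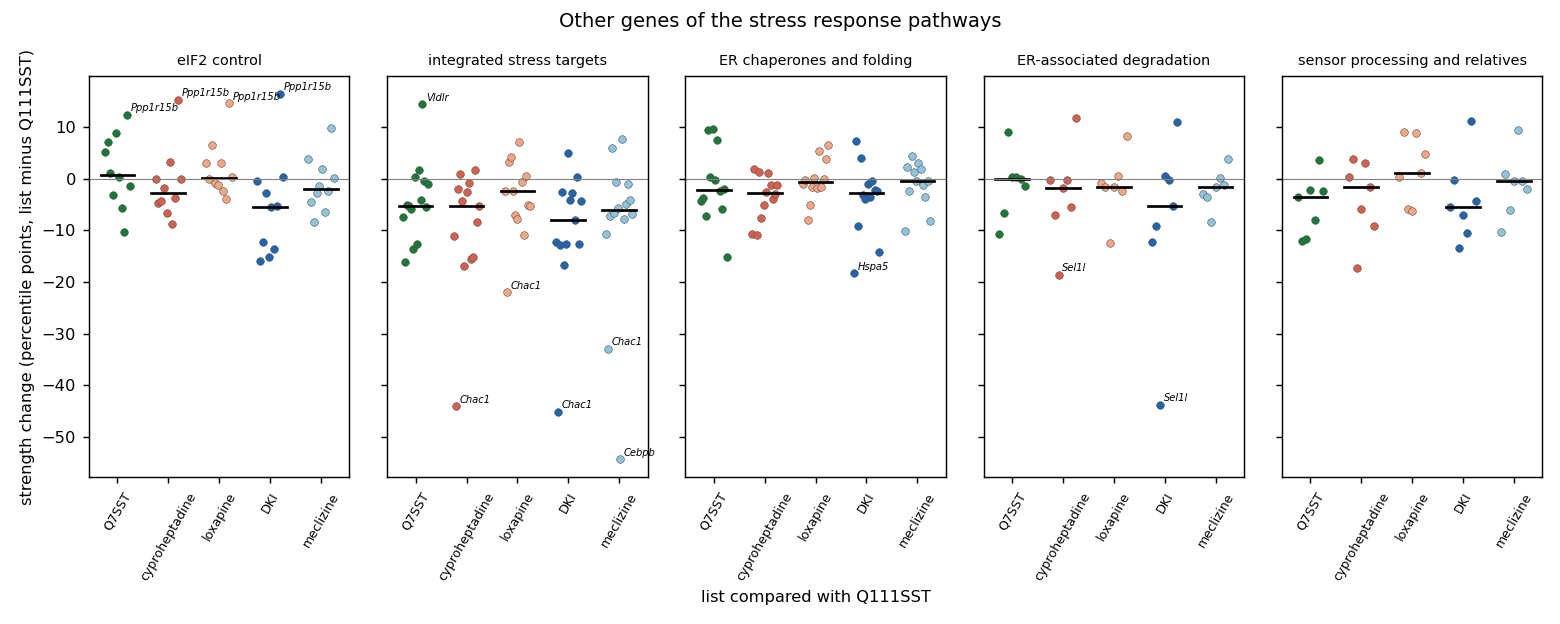
Change in strength from Q111SST (percentile points) for the genes of 5 pathway lists that were marked in both lists, with 1 point per gene and a line at the median of the list. Genes at least 18 points lower or 12 points higher are named, among which Chac1 was lower in all 4 compound lists and Ppp1r15b was higher in Q7SST, cyproheptadine, loxapine and DKI.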

How the data were processed

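Crosslinked chromatin was cut by micrococcal nuclease, and H3K4me3 was recovered by immunoprecipitation. The deposited peak lists give each peak's chromosome, start, end and a score, which is the authors' own. The submitters' processing notes name Trimmomatic 0.36, Bowtie2, SAMtools 1.3, MACS2 and mm10. Peak-calling thresholds, any input control, and whether replicate cultures were pooled are not given in the sources used here. The lists were checked against GRCm38 chromosome lengths, and peaks ran past the end on 0 of 21 chromosomes. Starts came from GENCODE release M21, without mitochondrial genes, and positions count from 1.

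Strength was the percentile of the strongest peak within 1 kb of a start. A change of 10 points or 1.5-fold in width was named. With 1 list per condition, no test was made. The members, pathway lists and motifs were chosen with earlier results of these data known. Named pathway genes were those unmarked in a list, the 3 that were most lower or higher in each comparison, and the strongest and weakest of each list in Q111SST. The steps were tested on simulated data. Python 3.11.15, numpy 2.4.6, pandas 2.3.3 and scipy 1.17.1 were used. Alternatives were lists of equal size, a stricter score, windows of 0 and 5 kb, percentiles among promoter peaks, merged peaks, summed widths and a reciprocal overlap of 50%.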

Additional observations from a re-analysis of the deposited data

How the results depend on the processing

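Of the 10 members 9 were marked where a peak had to lie over a start, in Q111SST, cyproheptadine and loxapine (without Eif2ak3), and at a stricter score of 47, in cyproheptadine and DKI (without Atf3), and all 10 were marked otherwise. The members' median strength change from Q111SST was -3.09 points in Q7SST, -4.02 under cyproheptadine, -4.05 under loxapine, -9.23 under DKI and -4.08 under meclizine. With lists of equal size it was -2.00 in Q7SST, -1.76 under cyproheptadine, -8.83 under loxapine and -4.02 under DKI. With a stricter score of 47 it was 0.53 in Q7SST, a change of sign, and -11.2, -5.64, -9.97 and -1.47 under cyproheptadine, loxapine, DKI and meclizine. Counting a peak only over the start gave -2.56, -4.93, -3.26, -5.07 and -1.67 in the order of the main values. With starts within 5 kb it was -1.69 in Q7SST, -2.66 under loxapine, -4.80 under DKI and -1.47 under meclizine. Percentiles among promoter peaks gave -0.84, -3.21, -4.48, -6.15 and -3.04.

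The median log2 width ratio was near 0 and changed sign easily. In Q7SST it was 0.01, and it was -0.0023 for peaks over the start, -0.0228 for merged peaks, -0.0185 for summed widths and 0.0556 within 5 kb. Under meclizine it was 0.01, and it was -0.0014 for peaks over the start, -0.0188 for merged peaks and -0.0173 within 5 kb. Under DKI it was 0.06, and it was 0.0311 for peaks over the start, -0.0858 for merged peaks and 0.0290 within 5 kb. Under cyproheptadine it was 0.0709 for peaks over the start, 0.0515 for merged peaks and within 5 kb, and 0.0734 for summed widths. Under loxapine it was 0.0775 for peaks over the start and 0.0790 within 5 kb and for summed widths. With lists of equal size 0 members had Q7SST above the mutant range in strength, against 1. Members lower by 10 points or more with lists of equal size were 3 under DKI (against 5), 1 under cyproheptadine (against 3) and 5 under loxapine (against 0), beside 21.5%, 17.2% and 22.3% of all genes at that setting. With a stricter score they were 5 under cyproheptadine (44.4% of all genes) and 3 under loxapine (16.6%), among promoter peaks 2 under loxapine (16.6%), and for peaks over the start 1 in Q7SST (12.2%) and 1 under meclizine (9.27%), each against 2. Members higher by as much, 0 in the main comparison, were 1 in Q7SST and DKI among promoter peaks (20.4% and 16.8% of all genes) and within 5 kb (9.32% and 3.98%), 1 in Q7SST with a stricter score (20.7%), and 1 and 2 under meclizine among promoter peaks (12.4%) and with a stricter score (18.4%). Members wider by 1.5-fold were 0 under DKI and meclizine for peaks over the start (each against 1, beside 0.687% and 1.81% of all genes), 0 under DKI and Q7SST for merged peaks (1.27% and 5.64%), 0 under meclizine for summed widths (2.37%), and 1 in Q7SST (against 2) for peaks over the start (3.56%) and for summed widths (5.45%). Members narrower by as much were, for merged peaks, 2 under DKI (against 1, 16.6% of all genes) and 1 in Q7SST and loxapine (each against 0, 6.35% and 6.98%). The other 132 recomputed values kept their direction, but they include counts that moved by 1 member within 1.5 times the main count. For these alternatives the cause was not tested.

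No paired analysis was possible because no condition had more than 1 list. The depth behind each list and the scale of its score are unknown, and a list with fewer peaks shifts every percentile in it. A strongest peak can be a narrow one beside the start, as at Eif2ak3, so strength does not measure the total mark of a promoter.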
